A study of Mus musculus with 93 samples.

Results

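Gene expression was compared between mouse embryonic stem cells labelled H1b/c/d/e-QKO, a quadruple knockout of linker histone genes, and wild type cells of the same R1 line. The comparison uses the 6 RNA-seq libraries that the labels call data set 2, 3 per genotype, out of 12 RNA-seq libraries and 93 samples in the series. The culture medium of both groups held serum and leukaemia inhibitory factor, and total RNA was extracted with TRIzol. The labels give no clone number for the QKO cells, no method of disruption and no origin for the replicates. The p-values thus rest on the spread among these libraries alone, and that spread may be technical. All 6 libraries are R1 cells without a further allele or drug in their labels.

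Linker histone H1 binds the nucleosome where DNA enters and leaves it and helps fold chromatin into compact fibres. Mouse cells hold several H1 variants. Those of the Hist1 cluster on chromosome 13 are made mainly in S phase, while H1f0 and H1fx are replacement variants made outside it, and Hist1h1t is the variant of the testis. Embryonic stem cells are a setting in which H1 dosage, chromatin compaction and the silencing of developmental, imprinted and germline genes have been studied together.

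Levels are given as CPM, counts per 1000000 of the TMM-scaled library total, and differences as log2 fold changes of libraries labelled QKO over wild type, with their standard error (SE). A gene is called when edgeR's quasi-likelihood test gave a Benjamini-Hochberg adjusted p under 0.05 over all 15439 genes tested. The libraries held 17438737, 18400587 and 21652513 counts in wild type and 23378930, 15912394 and 21112985 in those labelled QKO. The chi-square per degree of freedom between replicates was 2.25 to 4.66, more than counting noise gives, so each library was counted once. The 10 stem cell markers examined, among them Pou5f1, Nanog and Sox2, were at 155 CPM or more in every library. Y-linked transcripts were nearly absent in both groups, with a sum over 10 genes of 1.64 to 3.02 CPM in the 6 libraries against 116 to 129 CPM in the wild type of data set 1, another group of 3 R1 libraries, at a scaling over all 12.

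The genes that the genotype label names were examined at the transcript level. Hist1h1c, the H1.2 gene (chromosome 13, 23830676 to 23832235, plus strand, mm9, the build of all gene positions here), measured 8.3, 9.53 and 9.51 CPM in the wild type cells, against 7.43, 8.02 and 9.46 CPM in the libraries labelled QKO. The groups overlapped, and the log2 fold change of -0.14 ± 0.13 was not called (edgeR adjusted p = 0.36). Hist1h1d, the H1.3 gene, was at 0.58, 0.165 and 0.649 CPM against 0.641, 0.435 and 0.234 CPM, again with overlapping groups. Hist1h1e, the H1.4 gene, was too low to be tested, at 0.348, 0 and 0.0927 CPM against 0.513, 0.186 and 0.328 CPM. Hist1h1b, the H1.5 gene (chromosome 13, 21871752 to 21872494, minus strand), was at 0.232, 0.496 and 0.0927 CPM in the wild type cells but 2.65, 3.29 and 3.37 CPM, all higher, in those labelled QKO. Not 1 of the 4 transcripts was called lower where the label says that its gene was disrupted. The transcript levels therefore do not check the label, and the libraries are called by their label throughout. Messages of the replication-dependent histone genes end in a stem-loop and not in a poly(A) tail, and the sources used here do not say how RNA was selected for sequencing.

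Other members of the family rose. H1f0 encodes H1.0, the variant that accumulates in cells leaving the cycle (chromosome 15, 78859152 to 78859689, plus strand). It was at 97.5, 96 and 94.1 CPM in the wild type cells, against 814, 795 and 818 CPM in the libraries labelled QKO. The 3 libraries labelled QKO lay far above the 3 wild type libraries, with means of 95.9 ± 1.73 and 809 ± 12.4 CPM (SD, n = 3). The change was 8.44-fold, a log2 fold change of 3.08 ± 0.04 (edgeR adjusted p = 1.7e-49). H1fx encodes H1.10, a divergent replacement variant (chromosome 6, 87930416 to 87931476, minus strand, 1 exon, overlapping Gm5577). It was at 45.7, 46.8 and 55.2 CPM against 292 to 319 CPM, a 6.15-fold rise (log2 fold change 2.62 ± 0.05, edgeR adjusted p = 3.3e-32). Hist1h1t (chromosome 13, 23787680 to 23788588, plus strand, 1 exon) had 1 count over the 3 wild type libraries and 144 over those labelled QKO. Its CPM went from 0.058, 0 and 0 to 2.31, 2.86 and 2.06, a ratio of 135 with an exact 95% interval of 23.8 to 5358 that covers counting error only. The rise of Hist1h1b was 11.4-fold (log2 fold change 3.52 ± 0.37, edgeR adjusted p = 5.5e-12). In all, 4 of the 7 linker histone genes tested were higher and 0 were lower. For 2 of the 7, Hist1h1b and Hist1h1t, no wild type library reached the 0.506 CPM that the low-count filter asks of 3 libraries, so they were tested through the libraries in which they are high. The summed level of the 11 annotated genes was 153 to 160 CPM in wild type and 1103 to 1147 CPM in the libraries labelled QKO. Hist1h1a, the H1.1 gene, was not called, at means of 0.546 and 0.92 CPM. H1foo, Hils1 and H1fnt, the oocyte and spermatid variants, had mean CPM of 0.175 or less in either group and were not tested.

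**Figure D1:**
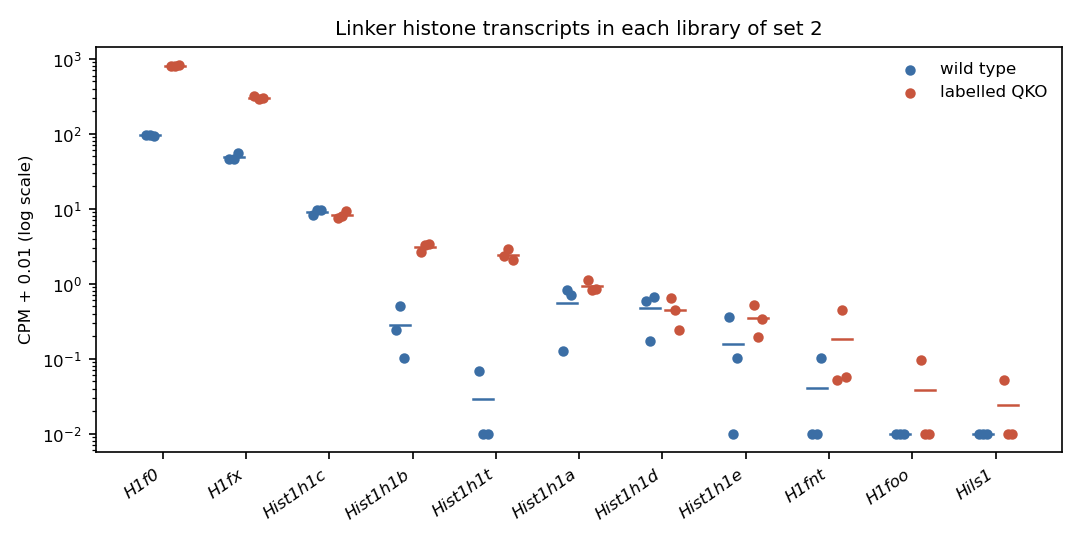
Level of the 11 linker histone genes in each of the 6 libraries, as CPM + 0.01 on a log axis; points are libraries and short lines are group means. H1f0 and H1fx separate the groups at high levels, Hist1h1b and Hist1h1t separate them at low levels, and Hist1h1c and Hist1h1d overlap.

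The promoters of the 4 linker histone genes that rose are shown because they belong to unlike kinds of H1 gene. Each line holds the 250 bases before the annotated start, 5′ to 3′ on the gene's strand, from RefSeq on GRCm38.p6. Capitals mark the H1 box, AAACACA on either strand, an element known from the promoters of S phase H1 genes. The windows are chr15:79027962-79028211 (plus) for H1f0, chr6:87981483-87981732 (minus) for H1fx, chr13:21780626-21780875 (minus) for Hist1h1b and chr13:23695561-23695810 (plus) for Hist1h1t.

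H1f0: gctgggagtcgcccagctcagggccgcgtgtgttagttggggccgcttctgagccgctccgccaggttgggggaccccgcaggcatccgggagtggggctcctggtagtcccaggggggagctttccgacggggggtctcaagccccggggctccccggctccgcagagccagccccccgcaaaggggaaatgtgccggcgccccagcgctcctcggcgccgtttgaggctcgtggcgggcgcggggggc
H1fx: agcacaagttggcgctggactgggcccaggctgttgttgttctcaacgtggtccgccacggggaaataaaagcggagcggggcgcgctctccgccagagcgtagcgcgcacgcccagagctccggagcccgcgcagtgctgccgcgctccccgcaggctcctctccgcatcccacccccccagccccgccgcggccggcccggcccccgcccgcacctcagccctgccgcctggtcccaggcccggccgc
Hist1h1b: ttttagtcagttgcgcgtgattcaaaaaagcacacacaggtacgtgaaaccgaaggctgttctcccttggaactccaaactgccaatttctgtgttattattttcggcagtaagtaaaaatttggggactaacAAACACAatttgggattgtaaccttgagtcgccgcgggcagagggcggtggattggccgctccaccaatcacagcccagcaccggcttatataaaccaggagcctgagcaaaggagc
Hist1h1t: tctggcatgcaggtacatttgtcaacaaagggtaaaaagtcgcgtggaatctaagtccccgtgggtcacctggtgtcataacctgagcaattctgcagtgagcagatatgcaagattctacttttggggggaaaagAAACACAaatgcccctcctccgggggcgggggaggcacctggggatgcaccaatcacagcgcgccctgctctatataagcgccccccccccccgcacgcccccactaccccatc

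All 11 linker histone genes had a RefSeq promoter. The H1 box was found in 5 of the 11 windows, against 6.22% of 27025 RefSeq genes with a window of the same length. Both Hist1h1b and Hist1h1t hold it, and the windows of H1f0 and H1fx do not, so the 4 genes that rose do not share it within these bases. The CCAAT letters, on either strand, were in 8 of the 11 windows against 34.5% of all genes, and in neither H1f0 nor H1fx. H1f0 and H1fx instead had 24 and 30 CG dinucleotides, Hist1h1b and Hist1h1t had 11 and 10, and the median over all genes was 6. A match describes letters only.

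Over all genes, changes were many and mostly small. Of the 15439 genes tested, 4430 were higher (28.7%) and 4473 lower (29.0%) in the libraries labelled QKO, and 6536 were not called. The groups did not overlap in 61.5% of genes. The median size of a called change was 0.47 on the log2 scale. Large changes were mostly increases: 1325 genes were called higher by at least 2-fold (8.58%) and 516 lower by at least 2-fold (3.34%). At 4-fold the counts were 457 and 42, and at 16-fold 104 and 0. The low-count filter, which asks 0.506 CPM in 3 libraries, bears on these counts. Of all tested genes 397 reached that level in no wild type library and 55 in no library labelled QKO. Such genes passed through the other group and had to differ. More genes were also detected. Genes with at least 1 count numbered 19419, 19542 and 19931 among wild type libraries but 21519, 20836 and 21344 among those labelled QKO. The QKO replicate with the fewest counts, replicate 2, still detected more genes than any wild type library. Genes at 1 CPM or more numbered 13393 to 13517 and 14002 to 14069, without overlap, at an exact two-sided permutation p of 0.1, the smallest that 3 against 3 allows. Testing genes without the low-count filter raised the 2-fold increases to 2008 and the 2-fold decreases to 603.

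Chromosome 14 moved as a whole. Its 551 tested genes had a median log2 fold change of 0.50, or 1.41-fold, and 85.8% lay above 0. Of them 395 were called higher (71.7%) and 39 lower (7.08%). The other nuclear chromosomes had medians from -0.14 on chromosome 12 to 0.07 on X. The rise ran along the chromosome: in 7 windows of 20 Mb the median was 0.38 to 0.56, the window from 80 Mb holding only 12 genes. It was less even in the last window, from 120 Mb, where 10 of 21 genes were called higher and 7 lower, with a lower quartile of -0.36. It was present in each class of mean level, with medians of 1.22 for the 59 genes under 1 CPM, 0.58 for genes of 1 to 10 CPM, 0.41 for 10 to 100 CPM and 0.47 for 100 CPM and over, where genes on other chromosomes had 0.35, 0.06, -0.06 and -0.03. Against the wild type mean, the median chromosome 14 gene was at 0.01, 0.00 and -0.01 in the wild type libraries and at 0.48, 0.47 and 0.47 in those labelled QKO. The share of all counts on chromosome 14 was 3.13%, 3.11% and 3.08% for wild type but 4.2%, 4.2% and 4.17% for the libraries labelled QKO (exact two-sided permutation p = 0.1). In data set 1 that share was 3.12% to 3.21% in wild type. Why the chromosome stood higher was not tested.

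**Figure D2:**
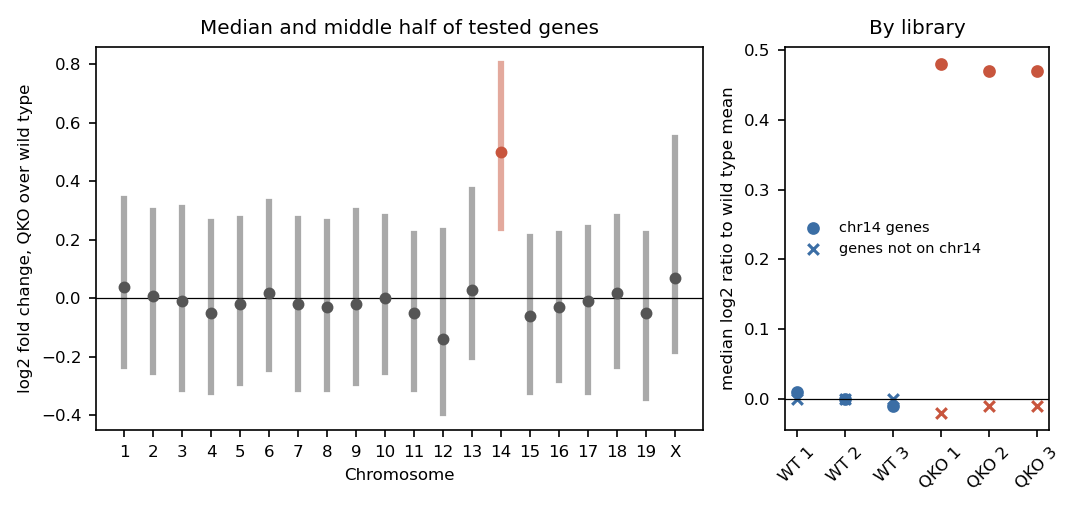
Left: median (point) and interquartile range (bar) of the log2 fold changes of tested genes per chromosome, with chromosome 14 in red. Right: median log2 ratio to the wild type mean per library, circles for chromosome 14 and crosses for genes elsewhere; the 3 libraries labelled QKO sit at 0.47 to 0.48 on chromosome 14 and near 0 elsewhere.

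Results are therefore also given without the 571 tested genes listed on chromosome 14, which include 20 listed on several chromosomes. The 14868 genes left held 4035 higher (27.1%) and 4432 lower (29.8%), of which 1226 (8.25%) and 512 (3.44%) passed 2-fold. Their median log2 fold change was -0.016. Large increases outnumbered large decreases with and without the chromosome. On chromosome 12 a smaller shift went the other way, with 44.1% of 547 genes called lower and 22.7% higher. When chromosome 14 genes were tested against their own median, 155 were higher (28.1%) and 175 lower (31.8%), close to the shares elsewhere. The reference was taken from these same genes, so a near balance of higher and lower was built in.

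Single genes on chromosome 14 moved far beyond that shift. Dach1, a transcriptional cofactor of eye and limb development, was at 0.058, 0.331 and 0.139 CPM in the wild type cells, against 6.02, 5.66 and 6.27 CPM in the libraries labelled QKO. Its log2 fold change was 5.04 ± 0.32 against 0 (edgeR adjusted p = 1.2e-19) and 4.55 against the chromosome median (edgeR adjusted p = 2.2e-17). No wild type library reached the filter's 0.506 CPM for Dach1, so it passed through the libraries labelled QKO and had to differ. Nefl, the light neurofilament chain, rose from a mean of 4.14 to 38.3 CPM (log2 fold change 3.23 ± 0.11, and 2.73 against the median). Ptpn20, a tyrosine phosphatase, rose from 0.478 to 4.92 CPM, and Samd4, an RNA-binding repressor of translation, from 0.475 to 4.79 CPM. The overlapping pair Defb30 and Defb42, beta-defensin genes, rose from 0.215 to 3.57 and from 0.165 to 1.28 CPM. Both reached the filter's level in no wild type library, so they too had to differ. Other genes fell against the trend. Mmp14, a membrane-bound collagenase, went from 29.5, 31.2 and 32.4 CPM to 13.2, 16.3 and 13.2 CPM, a log2 fold change of -1.14 ± 0.09 against 0 and -1.64 against the median. Sorbs3, an adhesion adaptor, fell from 15.2 to 5.85 CPM, Mbnl2, a splicing factor, from 39.3 to 26.2 CPM, and Nalcn, a sodium leak channel, from 1.14 to 0.233 CPM. For Bap1, the H2A deubiquitinase, the sign depended on the reference: its log2 fold change was 0.46 ± 0.04 against 0 and -0.04 against the chromosome median, where it was not called (edgeR adjusted p = 0.43). Rpl15 behaved alike, at 0.45 and -0.05 (edgeR adjusted p = 0.28), and Setdb2, an H3K9 methyltransferase, lost its call at 0.07 (edgeR adjusted p = 0.4).

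The level of a gene went with the direction of its change. Genes with a mean under 1 CPM over the 6 libraries were called higher in 29.3% and lower in 6.04% of 1574 cases, with a median log2 fold change of 0.37. Between 1 and 10 CPM the shares were 30.8% and 20% of 4602 genes. From 10 to 100 CPM they turned, with 26.5% higher and 37.6% lower of 6834 genes, and at 100 CPM and over they were 30.4% and 36.7% of 2429. Changes of at least 2-fold thinned out with level: 27.4% of the genes under 1 CPM rose by that much, 15.6% of those from 1 to 10 CPM, 2.34% from 10 to 100 CPM and 0.576% above. The decreases of that size made up 4.96%, 6.15%, 2.06% and 0.576%. Without chromosome 14 the lowest class held 28.2% higher and 6.23% lower, and the highest 28.1% and 38%. The low-count filter, which asks 0.506 CPM in 3 libraries, bears on the lowest class. Of its 1574 genes 317 reached that level in no wild type library and 52 in no library labelled QKO, so these passed through the other group and had to differ. With classes set by the wild type of data set 1 the same filter still chose the genes, with 286 and 37 such genes among 1850 under 1 CPM, and the shares under 1 CPM were 33.8% and 6.38% and at 100 CPM and over 28.5% and 37.3%. Per kilobase of gene length the lowest class held 35.9% higher and 11.4% lower genes.

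**Figure D3:**
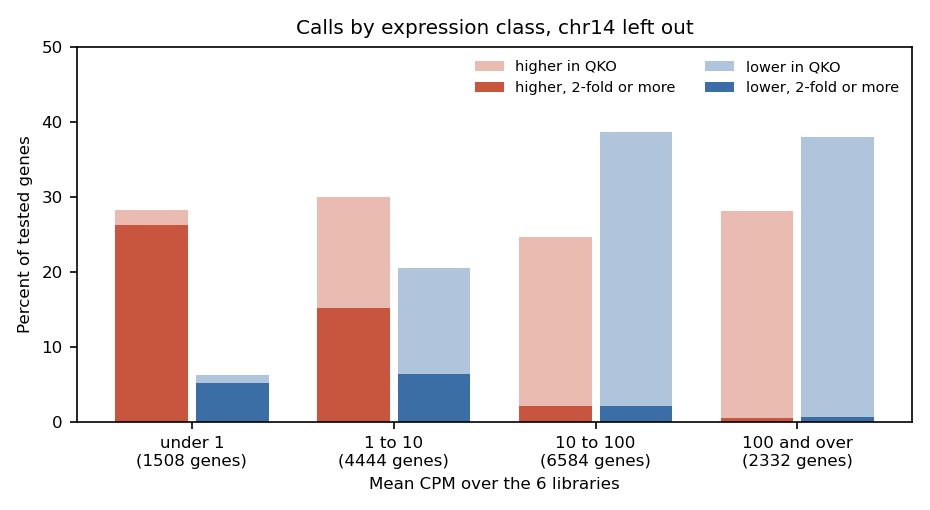
Percent of tested genes called higher (red) or lower (blue) in the libraries labelled QKO by class of mean CPM, chromosome 14 left out; full colour marks changes of at least 2-fold. Increases of at least 2-fold make up 26.3% of the lowest class and 0.515% of the highest.

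Among the most expressed genes the changes were small. Hsp90ab1, a cytosolic chaperone, went from a mean of 6189 to 5071 CPM (log2 fold change -0.29 ± 0.04), and Pkm2, the glycolytic pyruvate kinase, from 4078 to 3494 CPM (-0.22 ± 0.04). Rpl4 and Rpsa, proteins of the large and small ribosomal subunit, fell by 0.19 and 0.22 on the log2 scale. The mitochondrial cytochrome b transcript, mt-Cytb, rose from 2466 to 3314 CPM, and the share of counts on mitochondrial genes was 1.63% to 1.77% in wild type and 1.91% to 2.01% in the libraries labelled QKO.

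Genes silent in wild type and active in the libraries labelled QKO were few under a strict rule. Of 14439 genes under 0.1 CPM in each wild type library, 8 reached 1 CPM in each library labelled QKO, and of 13336 genes silent in the libraries labelled QKO 0 were active in each wild type library. None of the 8 lies on chromosome 14. Lgi1, a secreted protein of neurons (chromosome 19, 38339272 to 38383429, plus strand), had 0 counts in all wild type libraries and 117, 58 and 91 counts in those labelled QKO, or 5, 3.6 and 4.26 CPM. It was at least 83-fold higher, taking 3 counts in the wild type group as the floor. C1rb, a complement protease gene that overlaps C1ra and C1s, had 1 count in wild type and 156 in the other group, a ratio of 146 (exact 95% interval 25.8 to 5802). Pdha2 and Cox8c, the testis forms of a pyruvate dehydrogenase subunit and of a cytochrome oxidase subunit, reached means of 2.15 and 1.38 CPM from 3 and 2 counts. With Hist1h1t these are the 5 members with an established name. The other 3 are Gm8994, Gm6189 and the pseudogene Tmem92-ps. The rule lies close to its limits: Cox8c had 1.11 CPM in its lowest library, while Slc6a13, a GABA transporter, missed with 0.983 CPM and Wnt7a with 0.94 CPM. The count depends on single libraries, since a silent gene may hold hardly more than 1 count: it was 21, 20 or 17 without wild type replicate 1, 2 or 3, and 11 or 12 without a library labelled QKO.

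A wider rule, added after the data had been seen, asked for under 0.5 CPM in each library of one group and 2 CPM or more in each of the other. It found 50 genes that went up and 1 that went down. The only gene that went down, Nkx6-3, a homeobox gene of the stomach and brainstem, is described with the largest decreases. Of the 50, 32 had established names, 2 lay on chromosome 14, 10 on chromosome 7, 7 on chromosome 6 and 5 on chromosome 12. The members reached at most 10.3 CPM, with a median of 3.5 CPM. They include Cr2 (0.318 to 4.74 CPM) and C3 (0.142 to 3.08 CPM), a receptor and the central component of complement, and the complement protease gene C1ra (0.15 to 3.85 CPM). They also hold Xlr3a (0.355 to 5.02 CPM), of an X-linked lymphocyte-regulated family, Tex16 (0.0995 to 3.01 CPM), a testis gene, and Col1a2 (0.16 to 4.7 CPM), a chain of type I collagen. Whether such genes were also low in another wild type was read from data set 1. Of the 50, 12 were under 0.5 CPM in each of its 3 wild type libraries, and 24 were at 2 CPM or more in each. Dach1, Ptpn5, Bai3, Tex16, Hist1h1b and Hist1h1t were low in both wild types, whereas Xlr3a was at 18 CPM and Zscan4c at 19.3 CPM in the wild type of data set 1. The tables of the sets were counted from alignments with different names, so levels across sets are given side by side and were not tested.

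**Figure D4:**
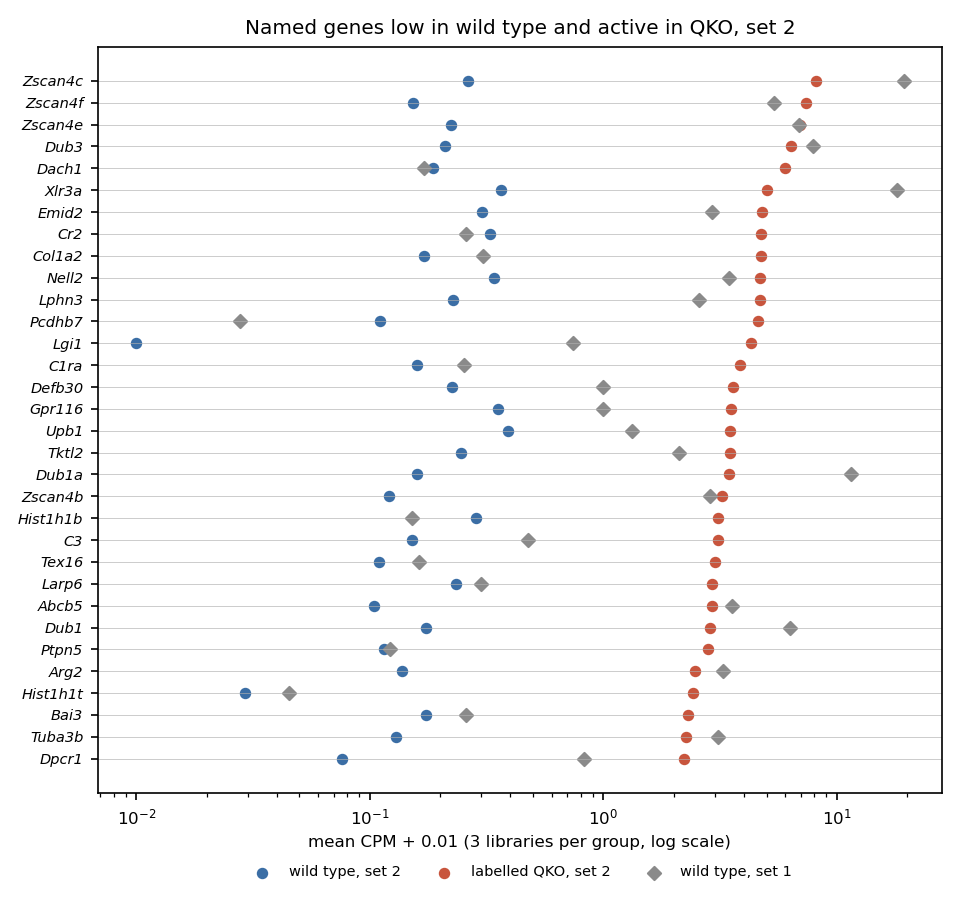
Mean CPM + 0.01 on a log axis of the 32 named genes under 0.5 CPM in each wild type library and at 2 CPM or more in each library labelled QKO of data set 2 (blue and red), with the wild type of data set 1 as grey diamonds. Grey diamonds beside the blue points (Dach1, Hist1h1t, Ptpn5) and beside or beyond the red points (Zscan4 and Dub genes, Xlr3a) both occur.

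The same reading was made for all large changes. Of the 1325 genes higher by at least 2-fold, 842 (63.5%) had all 3 wild type libraries of data set 1 below all libraries labelled QKO, against 36.5% of all tested genes, and 142 (10.7%) had them all above. Of the 516 lower by at least 2-fold, 349 (67.6%) had them all above the libraries labelled QKO, against 32.8% of all tested genes. Both groups of genes were chosen by how far the libraries labelled QKO lay from the wild type of data set 2. That choice by itself raises both shares, so the shares of all tested genes are not a fair baseline.

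The largest increases outside chromosome 14, among named genes with groups that do not overlap, were Lgi1, Maml2, Spock3, Slfn3, Prkg1, C1rb, Hist1h1t, Slc6a13, Muc3, Zscan4f, Wnt7a and Pcdhb7. Maml2, a Notch coactivator, Spock3, a secreted proteoglycan, Slfn3, a Schlafen protein, and Prkg1, a cGMP-dependent kinase, had 0 counts in wild type and were at least 28.1, 20.3, 19 and 19-fold higher. Muc3, an intestinal mucin, was at 0.58, 0.22 and 0.464 CPM in the wild type cells, against 22.1, 21.9 and 21.3 CPM in the libraries labelled QKO, a 50.9-fold change (log2 fold change 5.67 ± 0.18, edgeR adjusted p = 4.5e-32). It was at 0.75 CPM in the wild type of data set 1, so it was low in both wild types. Wnt7a, a Wnt ligand, had 1 and 64 counts, a ratio of 59.9 (exact 95% interval 10.4 to 2402). Pcdhb7, a clustered protocadherin of neuronal cell identity, rose from 0, 0.165 and 0.139 CPM to 4.61, 3.67 and 5.48 CPM.

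The largest decreases were smaller. Nkx6-3 fell from 4.93, 5.46 and 4.13 CPM to 0.342, 0.497 and 0.374 CPM (log2 fold change -3.59 ± 0.29, edgeR adjusted p = 8.0e-16), and was at 16.7 CPM in the wild type of data set 1. No library labelled QKO reached the filter's 0.506 CPM for Nkx6-3, so it passed through the wild type libraries and had to differ. Fkbp6, an immunophilin of spermatogenesis, went from 1.82 to 0.147 CPM. Aldh1b1, a mitochondrial aldehyde dehydrogenase, fell from 11.6 to 1.94 CPM and Pdpn, a mucin-like surface protein, from 7.66 to 1.48 CPM. Vax2, a homeobox gene of the ventral retina, Mmp23, a metalloproteinase, Rgl3, a Ras effector, Serpinb6c, a serine protease inhibitor, Zadh2, Mfsd7a and Pygo1, a Wnt pathway cofactor, were also among the 12 largest, with log2 fold changes from -2.79 to -2.35.

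Gene families were described from 54 lists, by the count of members called against the 28.7% higher and 29.0% lower, and the median of -0.003, of all tested genes. A tested member at the filter's level in no library of 1 group passed through the other group and had to differ. Histones came first. Of 23 tested replication-dependent core histone genes 16 were higher and 1 lower (0 lower without wild type replicate 3 or QKO replicate 3), with a median log2 fold change of 0.72, though at low levels: the 63 annotated genes summed to 34.7 to 37.8 CPM in wild type and 60.8 to 63.5 CPM in the libraries labelled QKO. Hist1h3c was at 0.696, 0.772 and 0.835 CPM against 1.92, 2.42 and 2.11 CPM, and Hist1h3i at 0.449 against 1.47 CPM. For 3 of the 23 no wild type library reached the filter's level. With at least 1 CPM required in 3 libraries, 10 core histone genes were higher. Of 9 replacement histones 7 were lower and 1 higher. H2afy2, which encodes macroH2A2, fell from 42.5, 46.4 and 45.4 to 15.3, 12.3 and 14.7 CPM (log2 fold change -1.65 ± 0.08, edgeR adjusted p = 1.2e-24), and H2afy, which encodes macroH2A1, from 262 to 194 CPM. H3f3b, a gene of histone H3.3, was the 1 that rose, from 612 to 949 CPM, and H2afz had a mean of 858 CPM in both groups. Without QKO replicate 1 the replacement histones called lower were 4.

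**Figure D5:**
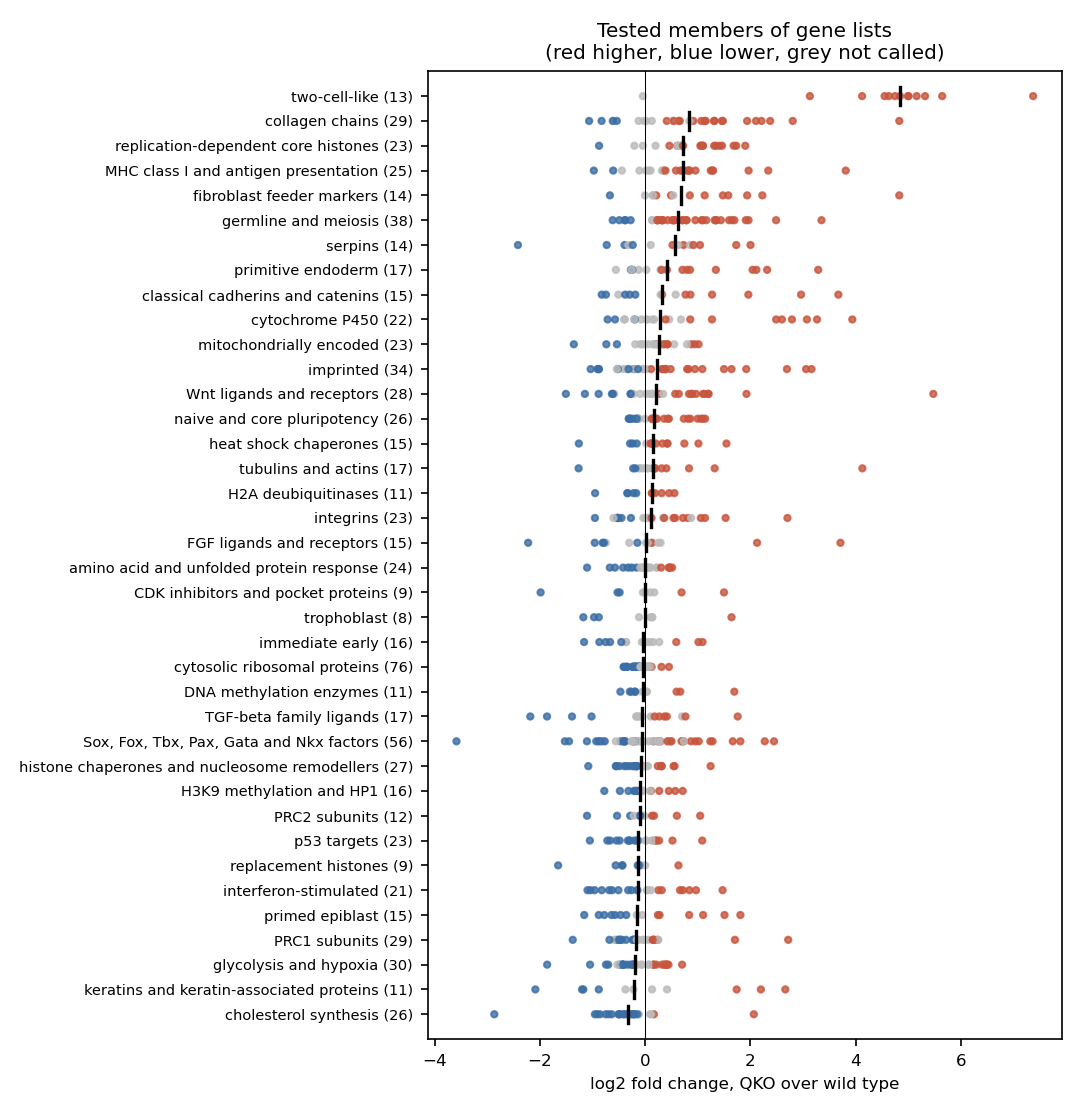
Log2 fold change of every tested member of the lists with 8 to 80 tested genes, red when called higher, blue when lower and grey when not called; black bars are list medians, and numbers in brackets are tested members. The 2-cell-like list has the highest median, 4.85, with 11 of its 13 members at the filter's level in no wild type library, and cholesterol synthesis the lowest, -0.33.

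Among chromatin regulators the moves were mixed and mostly small. Of 29 PRC1 subunits, the Polycomb complex that ubiquitinates H2A, 6 were higher and 14 lower. Among the 29, 1 reached the filter's level in no library labelled QKO. Scml2 rose from 1.1, 1.98 and 1.58 to 10.9, 10.9 and 9.18 CPM and Bcorl1 from 8.71 to 28.3 CPM, both on X, while Ring1 fell from 14.2 to 8.77 CPM. Of 12 PRC2 subunits, the complex that methylates H3K27, 4 were higher and 5 lower. Phf19, which directs it to CpG islands, fell from 14.8 to 6.84 CPM, and Ezh1 from 55.8 to 38.6 CPM. The PRC2 decreases were 3 without wild type replicate 2 or when any 1 of the 3 libraries labelled QKO was left out. Of 11 DNA methylation genes 3 were higher, led by Dnmt3l, the cofactor of de novo methylation, from 34.7, 39.6 and 36.2 to 119, 120 and 119 CPM (log2 fold change 1.70 ± 0.05, edgeR adjusted p = 3.6e-32). Dnmt3a rose from 140 to 222 CPM and Uhrf1, which recruits maintenance methylation, fell from 454 to 328 CPM. The lower members of that list numbered 5, and 3 without wild type replicate 1 or QKO replicate 2. Of 16 genes for H3K9 methylation and HP1, 5 were higher and 7 lower, Trim28 rising from 1428 to 2341 CPM and Suv39h1 falling from 52.2 to 30.5 CPM.

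Pluripotency genes stayed on. Of 26 naive and core pluripotency genes 15 were higher and 7 lower, with a median of 0.17. Zfp42 rose from 906, 910 and 881 to 1678, 1622 and 1589 CPM, Klf2 from 152 to 318 CPM, and Pou5f1 was at 999 and 1100 CPM. Of 15 primed epiblast genes 6 were higher and 7 lower, or 5 and 4 of 11 without chromosome 14. Otx2, on chromosome 14, rose from 26.7 to 57.3 CPM, with a log2 fold change of 1.10 against 0 and 0.60 against the chromosome median (edgeR adjusted p = 1.7e-10), and Sox3 from 1.36 to 4.83 CPM. Cldn6, a tight junction protein, fell from 17 to 7.63 CPM. The other 3 members on chromosome 14, Sall2, Zic5 and Zic2, fell from 11.5 to 7.68, from 14.3 to 10.3 and from 7.6 to 5.91 CPM. Sall2, Zic5 and Zic2 were named after their values were seen.

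The 2-cell-like list, genes of the cleavage embryo that a small fraction of stem cells expresses in bursts, had 20 annotated members, of which 13 passed the low-count filter and 7 were not tested. For 11 of the 13 no wild type library reached the filter's level, so they passed through the libraries labelled QKO and had to differ. The 12 called higher and the median of 4.85 describe only those that passed. The sum over all 20 was 225 to 245 CPM in wild type and 278 CPM or more in the libraries labelled QKO. Most of that sum was 1 member, Eif1a, which was not called, at means of 232 and 225 CPM. The next highest wild type mean was 0.395 CPM, of Zscan4d, so the sum says little about the other members. The median was 4.75 with Gm6763, at 0 counts in wild type, set to its lower bound of 20.3-fold. Zscan4d, which acts on telomeres, was at 0.348, 0.606 and 0.232 CPM in the wild type cells, against 14.6, 18.5 and 14.4 CPM in the libraries labelled QKO (log2 fold change 5.32 ± 0.21, edgeR adjusted p = 2.2e-27). Zscan4c, Zscan4e and Zscan4f reached 8.13, 6.94 and 7.33 CPM, and Gm8300 10.3 CPM. The wild type of data set 1 held Zscan4d at 17.4 CPM and Gm8300 at 11.1 CPM. All 12 called members had a higher mean in the wild type of data set 1 than in that of data set 2, and 7 of the 12 a mean at or above the libraries labelled QKO. These genes have near-identical copies, so the split of reads among them is uncertain. In bulk RNA, more cells of a type and more RNA per cell cannot be told apart.

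Germline and imprinted genes followed. Of 38 germline and meiosis genes 30 were higher and 5 lower, with a median of 0.63 and 14 increases of at least 2-fold. Tex13, an X-linked testis gene, was at 5.05, 6.12 and 5.24 CPM against 55.4, 55.3 and 56.8 CPM (log2 fold change 3.35 ± 0.09, edgeR adjusted p = 2.6e-36) and at 1.64 CPM in the wild type of data set 1. Brdt, the testis bromodomain protein, rose from 4.27 to 16.2 CPM, Piwil1, a piRNA-binding protein, from 1.58 to 6.16 CPM, and Rpl10l, the testis copy of Rpl10, from 32.3 to 105 CPM. Of 34 imprinted genes 17 were higher and 8 lower. Sfmbt2 rose from 4.82, 5.29 and 3.94 to 30, 29.3 and 30.9 CPM, and was at 21.6 CPM in the wild type of data set 1. Dio3, which inactivates thyroid hormone, rose from 0.449 to 4.25 CPM, Magel2 from 0.576 to 4.88 CPM and Igf2 from 0.901 to 3.37 CPM. Grb10, an adaptor that restrains growth factor signalling, fell from 605, 611 and 576 to 291, 296 and 286 CPM (log2 fold change -1.04 ± 0.04, edgeR adjusted p = 4.6e-29). Among the 30 annotated Rhox homeobox genes, 19 had 0 counts in all 6 libraries and 4 passed the filter, 1 of them with its level reached in all 6. The sum over all 30 was 2.41 to 2.9 CPM in wild type and 12.6 to 14.7 CPM in the libraries labelled QKO, and Rhox13 rose from 0.495 to 4.3 CPM.

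Developmental regulators were less uniform. Of 39 Hox genes 6 were tested, 0 were higher and 4 lower, with Hoxc13 falling from 3.66 to 0.957 CPM. With 1 CPM in 3 libraries required, 2 were lower. Among the 6, 1 reached the filter's level in no library labelled QKO, so it passed through the wild type libraries and had to differ. Of 56 Sox, Fox, Tbx, Pax, Gata and Nkx factors 17 were higher and 15 lower, Tbx3, a T-box factor of naive stem cells, rising from a mean of 190 to 316 CPM. Among the 56, 3 reached the filter's level in no wild type library and 3 in no library labelled QKO. Primitive endoderm genes, of the lineage that forms the yolk sac, were higher in 10 and lower in 2 of 17, with Hnf4a from 2.53 to 10.4 CPM and Cubn from 0.772 to 3.76 CPM. Among the 17, 1 reached the filter's level in no wild type library. Trophoblast genes were higher in 1 and lower in 3 of 8, with Eomes from 14.7 to 7.49 CPM and Krt8 from 32.8 to 14.5 CPM. Among signalling genes, the Nodal inhibitors Lefty2 and Lefty1 fell, Lefty2 from 188, 172 and 182 to 51.3, 49.3 and 48.1 CPM (log2 fold change -1.87 ± 0.05, edgeR adjusted p = 4.9e-36) and Lefty1 from 54.5 to 20.7 CPM, within a list of 17 TGF-beta family ligands of which 6 were higher and 4 lower. Lefty2 was at 34.2 CPM in the wild type of data set 1. Of 28 Wnt ligands and receptors 13 were higher and 7 lower, 8 higher with 1 CPM in 3 libraries required. Among the 28, 2 reached the filter's level in no wild type library. Of 15 FGF ligands and receptors 3 were higher and 5 lower (5 higher without wild type replicate 3 or QKO replicate 2), Fgf13 rising from 2.54 to 11.2 CPM and Fgf10 falling from 2.49 to 0.548 CPM. Among the 15, 1 reached the filter's level in no wild type library and 1 in no library labelled QKO. Among 5 tested neural genes Nes, the intermediate filament of neural progenitors, rose from 10.3 to 24.7 CPM and Tubb3, a neuronal tubulin, from 88 to 157 CPM, while Pax6 fell from 2.43 to 1.33 CPM.

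Of 29 collagen chains 18 were higher and 4 lower, with a median of 0.84. For 1 of the 29, Col1a2, no wild type library reached the filter's level. Col1a2 was at 0.058, 0.331 and 0.0927 CPM against 4.96, 5.34 and 3.79 CPM, and Col22a1 at 1.61 against 7.52 CPM, while Col18a1 fell from 304 to 199 CPM. Markers of fibroblasts, which can serve as feeder cells, were higher in 9 and lower in 1 of 14 tested members, and the sum over the 25 listed was 101 to 112 CPM in wild type and 159 to 167 CPM in the libraries labelled QKO. Of the 25, 9 were at 0 in all wild type libraries and 2 in all libraries labelled QKO. Dcn, a defining fibroblast gene, had 0 counts in every library, and Col3a1 and Postn went from 0 to means of 0.0713 and 0.0156 CPM. Among the 9 called higher, Fbln2 rose from 1.52 to 7.17 CPM, Timp3 from 1.56 to 4.65 CPM and Mmp2 from 22.8 to 32.2 CPM. Timp2, named after its values were seen, was the 1 called lower, from 8.12 to 5.1 CPM. The part of such cells in the collagen values was not tested. Of 25 annotated clustered protocadherins 5 passed the filter, 1 of them with its level reached in all 6 libraries, and the sum over the 25 was 82.4 to 88.3 CPM in wild type and 99.9 to 116 CPM in the libraries labelled QKO. Of 25 genes for MHC and antigen presentation 17 were higher and 2 lower (1 lower without wild type replicate 3, QKO replicate 2 or QKO replicate 3). For 2 of the 25 no wild type library reached the filter's level. Nlrc5, the activator of MHC class I genes, rose from 0.754, 1.43 and 1.11 to 4.23, 4.6 and 4.21 CPM, whereas the class I gene H2-K1 was not called, at 37.4 and 40.2 CPM. Of 21 interferon-stimulated genes 7 were higher and 10 lower, Ddx58, the RNA sensor RIG-I, rising from 18.8 to 36.6 CPM and Oas1a falling from 5.49 to 2.52 CPM. Of 7 annotated Schlafen genes 4 passed the filter, 3 of them at its level in no wild type library. The sum over the 7 was 2.09 to 2.44 CPM in wild type and 26.8 to 28.1 CPM in the libraries labelled QKO. Most of it was Slfn9, which rose from 1.68, 1.6 and 1.81 to 22.8, 23.6 and 23.7 CPM and was at 20.4 CPM in the wild type of data set 1.

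Of 26 genes for cholesterol synthesis and uptake 21 were lower and 2 higher (1 higher without wild type replicate 2 or QKO replicate 3), with a median of -0.33. Among the 26, 1 reached the filter's level in no wild type library. Pmvk and Mvk, kinases of the mevalonate pathway, fell from 42.4 to 21.8 and from 27.4 to 14.6 CPM. Srebf2, the regulator of the pathway, fell from 372 to 284 CPM. Of 30 genes for glycolysis and hypoxia 14 were lower and 10 higher. Egln3, a prolyl hydroxylase induced in low oxygen, fell from 85, 82.3 and 83.6 to 21.9, 24.4 and 23 CPM (log2 fold change -1.86 ± 0.06, edgeR adjusted p = 1.0e-31) and Slc2a1, the glucose transporter GLUT1, from 633, 643 and 635 to 290, 321 and 315 CPM. They were at 9.9 and 198 CPM in the wild type of data set 1. Of 76 cytosolic ribosomal protein genes 26 were lower and 5 higher, or 26 and 3 of 74 without chromosome 14, with a median of -0.05, and the higher ones numbered 2 or 3 without wild type replicate 1 or 3 or QKO replicate 1 or 2. Of 23 p53 targets 11 were lower and 5 higher, with Gadd45a from 31 to 14.9 CPM. Among cell cycle inhibitors Cdkn2a, a locus silenced by Polycomb in many cells, fell from 22.4 to 5.65 CPM and Cdkn1c rose from 8.22 to 23.2 CPM.

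Adhesion, cytoskeletal and stress genes moved both ways. Of 15 classical cadherins and catenins 7 were higher and 5 lower. For 3 of the 15 no wild type library reached the filter's level, so they passed through the libraries labelled QKO and had to differ. Cdh7, a neural cadherin and 1 of these 3, rose from 0.0995 to 1.41 CPM. Ctnna1, the alpha-catenin that links cadherins to actin, fell from 725, 708 and 716 to 584, 579 and 588 CPM. Integrins were higher in 10 and lower in 6 of 23, with 6 higher without QKO replicate 3. Of these integrins 1 reached the filter's level in no wild type library. The highest of them, Itgb1, the common beta chain, fell by 0.27 on the log2 scale, and Itga6, a laminin receptor chain, fell from 244 to 170 CPM. Keratins were higher in 3 and lower in 4 of 11 tested, and Krt17, a keratin of stratified epithelium, fell from 7.98 to 1.89 CPM. For 2 of the 11 no wild type library reached the filter's level, so they too passed through the libraries labelled QKO and had to differ. Serpine2, a secreted protease inhibitor, rose from 8.7, 7.16 and 6.86 to 30.1, 30.1 and 30.4 CPM, in a list of 14 tested serpins with 6 higher and 4 lower. Among the 14, 1 reached the filter's level in no wild type library.

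Heat shock chaperones were higher in 10 and lower in 4 of 15, with Hspa4l from 11.1 to 32.5 CPM and Hspb8 from 18.8 to 7.86 CPM. Of 16 immediate early genes 3 were higher and 5 lower (5 higher without wild type replicate 3). Jun rose from 4.88 to 10.5 CPM, Jund fell from 143 to 85.3 CPM and Dusp1, a MAP kinase phosphatase, from 40.5 to 18.2 CPM. Of 24 genes of the amino acid and unfolded protein responses 5 were higher and 7 lower, Ddit4, an inhibitor of mTORC1, falling from 148, 160 and 172 to 68, 78.1 and 78 CPM. Histone chaperones and remodellers were lower in 13 and higher in 7 of 27: Hmga2, an architectural chromatin protein, fell from 22.1 to 10.5 CPM and Chd7, a remodeller, from 90.5 to 61.3 CPM, and Ino80, another remodeller, rose from 94.6 to 139 CPM. Among the 27, 1 reached the filter's level in no wild type library. Of 11 H2A deubiquitinases and their partners 6 were higher and 5 lower, with Usp46 falling from 29.9 to 15.5 CPM.

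Large families of mostly silent genes stayed mostly silent. Of 1096 annotated olfactory receptor genes 976 had 0 counts in all 6 libraries, 4 were tested and 1 was called, Olfr147, higher at 1.25 against 0.263 CPM (2 called when 1 wild type replicate, whichever it was, or QKO replicate 1 was left out). Olfr147 reached the filter's level in no wild type library, so it passed through the libraries labelled QKO and had to differ. Of 323 vomeronasal receptor genes 267 were at 0 throughout and 3 were tested, of which Vmn1r53 rose from 0.751 to 4.34 CPM. Their summed levels moved from 5.29 to 6.44 up to 10.2 to 12.6 CPM and from 5.98 to 6.9 up to 11 to 13.7 CPM. Of 94 cytochrome P450 genes 22 were tested, 9 higher and 3 lower, with Cyp1a2 from 0.0773 to 1.41 CPM. For 4 of the 22, Cyp1a2 among them, no wild type library reached the filter's level. These passed through the libraries labelled QKO and had to differ. By contrast 342 tested Zfp zinc finger genes were called higher in 102 and lower in 84 cases, and 249 solute carriers in 71 and 82, close to the shares of all genes.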

How the data were processed

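RNA-seq libraries of R1 embryonic stem cells were prepared with TruSeq kits, per the labels' protocols. The authors deposited raw counts per gene, made with featureCounts 1.6.3 on mm9 gene models, per the file headers. The submitters' processing notes name HISAT2, Bowtie2, SAMtools and DESeq2, with no role or version. The sources used here do not say whether counting used strand, so overlapping genes are named as such.

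Genes passing filterByExpr (15439 of 33924) were fitted on the 6 libraries with edgeR 4.0.16 (R 4.3.3), using TMM scaling and the robust quasi-likelihood test. Calls had a Benjamini-Hochberg adjusted p under 0.05 over all tested genes. The fit was tested on simulated data. Chromosome 14 genes were tested against 0 and, with an offset, against their median. CPM uses the TMM-scaled library total. Values of data set 1 come from a scaling of all 12 libraries. A gene is named if it is a linker histone gene, among the 12 largest changes each way elsewhere or 6 each way on chromosome 14 (called, groups apart, 1 CPM or more, no provisional name), silent-to-active, among the 4 largest called or 2 highest members of a list, or among the 10 highest called genes. Genes named under the wider low-to-active rule, those beside the strict rule's limits and provisional names were chosen after their values were seen. Some genes that the rule names are not reported here. The members and lists were chosen with earlier results of these data known. Alternatives were other scalings and filters, DESeq2 1.42.0, a fit of all 12 libraries, a replicate block and leaving out each library. RefSeq promoters were matched by symbol. Intervals and floors cover counting error only.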

Additional observations from a re-analysis of the deposited data

How the results depend on the processing

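No called gene changed direction under another scaling, DESeq2, other low-count filters, a fit of all 12 libraries or without 1 library. Not all stayed called: the fit of all 12 libraries kept 6546 of 8889 calls and DESeq2 kept 7642 of 8903. Genes called higher numbered 3495 (all 12 libraries) to 4950 (upper-quartile scaling) and genes called lower 3330 (all 12 libraries) to 4619 (no filter). Upper-quartile scaling gave 3936 decreases, so under it increases outnumbered decreases. Leaving out 1 library gave 3994 to 4346 higher and 4077 to 4397 lower. Without a low-count filter the 2-fold increases were 2008, or 1873 without chromosome 14. The chromosome 14 median of 0.50 was 0.54 with upper-quartile scaling, 0.51 with TMM computed without chromosome 14, 0.66 with DESeq2, 0.64 without a filter, 0.48 with 1 CPM in 3 libraries and 0.48 to 0.51 without 1 library. The median of all genes moved too, to 0.04 with upper-quartile scaling and 0.01 with TMM without chromosome 14. It was 0.09 with DESeq2 and 0.08 without a filter, where 24261 genes entered. Silent-to-active genes, 8 as reported, were 1 when silent meant 0 counts in each library, 41 and 4 when active meant 0.5 or 2 CPM, 50 under the wider rule chosen after seeing the data, and 11 to 21 without 1 library. The reverse count of 0 was 2 with active at 0.5 CPM and 1 under the wider rule. Against the chromosome 14 median Bap1 turned to -0.04 and Rpl15 to -0.05, as did 139 calls in all, and Mt2, not called at -0.01, was -0.11 to 0.13 without 1 library, called at 0.13 without wild type replicate 2. The replicate block gave 4517 higher and 4563 lower genes, and 4119 and 4520 without chromosome 14. Same-numbered libraries had deviation correlations of 0.03, -0.01 and 0.08, so the numbers do not pair them. Of 4510 alternative values for named genes 4408 kept the call, and also the direction where the gene was called in either fit. A missing adjusted p counted as a kept call. Of 1700 list counts 1613 stayed within 1.5 times. Low counts limit the silent classes: 1 count equalled 0.0427 CPM in the deepest library and 0.0622 CPM in the shallowest, so genes near that level were not resolved.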
